A study of Mus musculus with 9 samples.

Results

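The genes described here are 53 mouse genes of DNA replication and S phase. They were taken by symbol from a written list that names the proteins that load, fire, copy and protect a replication origin. The list itself sets no threshold on a measured value. Each symbol matched 1 Ensembl identifier among the 35275 genes of the count table, and all 53 were among the 15821 genes that passed the filter on low counts. RNA was sequenced from 9 mammary gland tumors, each counted as 1 replicate. All 9 came from Brca1Co/Co;MMTV-Cre;p53+/- mice, in which the MMTV promoter drives Cre recombinase in mammary epithelium, Cre acts on a conditional Brca1 allele and 1 copy of p53 is missing. This germline genotype was shared by the saline and treated mice, and the alleles of each tumor were not measured. Treatment began at a tumor diameter of 4 to 5 mm and consisted of 5 doses at 3 doses a week. A3673, A3685 and A3688 received saline, B3638, B3684 and B3700 received free Talazoparib by the intravenous route (i.v. TLZ), and C3519, C3669 and C3698 received Talazoparib enclosed in liposomes (NanoTLZ). Both drug groups were given 0.33 mg/kg per dose. Tumors given the empty carrier were not analysed here, so the drug and the carrier cannot be told apart in NanoTLZ.

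Replication starts from origins that are licensed in G1, when ORC, CDC6 and CDT1 load the MCM2-7 helicase onto DNA. In S phase the kinase CDC7-DBF4 and the factors CDC45, GINS and MCM10 switch the helicase on. Polymerase alpha with its primase makes primers, and polymerases epsilon and delta extend them together with the PCNA clamp. Most of these genes are known targets of E2F transcription factors, which cyclin E and its kinase release from the retinoblastoma protein at the G1/S border. Talazoparib inhibits PARP enzymes and traps them on DNA, where they obstruct replication forks, and cells without BRCA1 are poorly able to repair the breaks that follow.

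Total counts ranged from 17538380 to 21194980 per tumor, and the 3 groups overlapped in depth. Levels are given as CPM (each count as a share of its TMM-adjusted library size, on the usual CPM scale) and are compared between genes only as RPKM, which also divides by exon length. The labels do not say whether the tumors of a group came from separate litters or were processed together, so the p-values measure the spread among these tumors. The 13 epithelial markers were all detected, with a summed level of 6489 to 10719 CPM in saline, 7748 to 9688 in i.v. TLZ and 5073 to 7371 in NanoTLZ. The sum hides single markers. Krt5 had 1849 CPM in A3688 and 2.30 to 72.9 in the others. Krt19, Krt7 and Elf3 had 31.2, 76.2 and 20.4 there and at least 173, 540 and 49.7 elsewhere. Cldn3 was highest and Cdh1 and Cldn7 lowest there by smaller margins. Epcam, Krt8, Krt18, Krt14, Cldn4 and Esrp1 lay inside the range of the others. A3688 stood apart from the other tumors in the level of the 53 genes and in skeletal muscle markers, which summed to 835 CPM there, 224 and 36.4 in the other 2 saline tumors and 4.87 to 33.0 in the 6 treated tumors. The counts at an unadjusted p under 0.05 are therefore given with and without it.

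Promoter sequence, which the choice of the genes did not use, was searched for cell cycle motifs. The table of RefSeq promoters used here (build GRCm38.p6, 250 bases before to 50 bases after a start site) holds 44 of the 53 genes. An E2F motif, taken as TTTCCCGC, TTTGGCGC, TTTGCCGC or TTTCGCGC on either strand, was found in 17 of the 44, or 38.6%. The share was 4.35% of the 11651 tested genes that have a promoter in the table and 2.6% of all 27025 genes in it. Motifs can overlap on opposite strands at 1 site, and a gene was counted once however many it held. The windows below belong to genes described in full further on, and the capitals mark the motif in its 30 bases.
Cdc6, chr11:98908002-98908031, + strand: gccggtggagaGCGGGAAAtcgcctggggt
Mcm3, chr1:20820275-20820304, - strand: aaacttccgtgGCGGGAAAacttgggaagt
Mcm6, chr1:128359797-128359826, - strand: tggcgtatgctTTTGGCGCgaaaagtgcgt
Mcm6, chr1:128359734-128359763, - strand: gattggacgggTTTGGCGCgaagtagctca
Pole2, chr12:69228162-69228191, - strand: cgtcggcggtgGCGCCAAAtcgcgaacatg
Lig1, chr7:13278841-13278870, + strand: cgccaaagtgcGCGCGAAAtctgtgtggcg
Uhrf1, chr17:56304117-56304146, + strand: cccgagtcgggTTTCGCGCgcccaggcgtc
Clspn, chr4:126556990-126557019, + strand: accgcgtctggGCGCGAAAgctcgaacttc

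Positions count from the start site of the RefSeq promoter that holds the motif as base 1, with bases before it negative. The motif begins at -138 in Cdc6, -110 and -47 in Mcm6 and -185 in Uhrf1, and between 11 and 27 in Mcm3, Pole2, Lig1 and Clspn. Uhrf1 has 2 promoters in the table and Lig1 has 3, and for each gene only 1 of them holds the motif. The first Mcm6 window reads as TTTGGCGC on 1 strand and at -106, as TTTCGCGC on the other. Among the MCM2-7 genes the table holds all but Mcm4, and Mcm3, Mcm5, Mcm6 and Mcm7 have an E2F motif whereas Mcm2 has none in this window. Of 44 further replication genes with a promoter in the table, 36.4% had an E2F motif, against 5.88% of 17 mitosis genes. The pattern was the opposite for the CHR motif (TTTGAA or TTCGAA, either strand), the element of many G2 and M phase genes: it was found in 22.7% of the 44 members, 20.5% of the other replication genes, 76.5% of the mitosis genes and 16.5% of all tested genes. CCAAT boxes were in 56.8% of the members, 47.7% of the other replication genes, 88.2% of the mitosis genes and 42.2% of all tested genes. A match describes letters in a window and does not show that a factor is bound there.

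**Figure D1:**
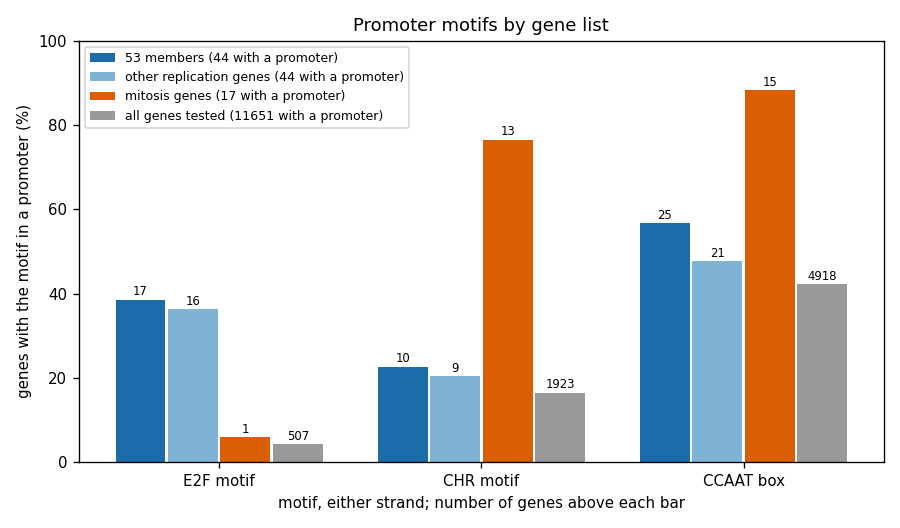
Share of genes (%, vertical axis) whose RefSeq promoter holds an E2F motif, a CHR motif or a CCAAT box, for the 53 replication genes, the other replication genes, the mitosis genes and all tested genes, with the number of genes above each bar. Shares are over the genes of each list that have a promoter in the table of RefSeq promoters. The E2F motif was in 38.6% of 44 such replication genes and 5.88% of 17 such mitosis genes, and the CHR motif in 22.7% and 76.5%.

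The levels of the 53 genes as RPKM covered a wide range. Pcna, the sliding clamp, had the highest median over the 9 tumors at 65.0 RPKM, followed by Gins4 at 32.6, Mcm3 at 28.1, Pold2 at 24.6, Rpa3 at 21.4 and Mcm7 at 20.3. From 5 to 20 RPKM there were 25 genes and from 1 to 5 RPKM 21 genes. Orc1 had 1.38 RPKM, and Fen1, the flap endonuclease of Okazaki fragments, was last at 0.451 RPKM. These are medians over tumors, and neighbours in the order were not tested against each other. The length used is the union of all annotated exons of a gene, and which exons were expressed in these tumors was not tested. Mcm2 and Mcm4, for example, had median levels of 54.7 and 56.8 CPM but 6956 and 3589 exon bases. By this measure, subunits of 1 complex were not at 1 level. Within each tumor the highest of the 6 MCM2-7 subunits exceeded the lowest by 2.29 to 4.59 times in RPKM, and the highest of the 4 GINS subunits exceeded the lowest by 7.14 to 14.4 times. In contrast, the 5 RFC subunits differed by 1.41 to 2.57 times, Chaf1a and Chaf1b by 1.06 to 1.70 times, and the kinase pair Cdc7 and Dbf4 by 1.011 to 1.67 times.

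Fen1 needs a reservation. Its counts were low in every tumor, between 0.436 and 1.89 CPM, and 84.2% of its 2422 exon bases are shared with Gm10143 and Tmem258 on the opposite strand. Whether the counting used strand is not given in the sources used here, so reads of these genes cannot be told apart. How reads on shared bases were counted is not given either, so the level of Fen1 may be too high or too low. The same limit holds for Gins2 and Chaf1a, which share 67.3% and 52.5% of their exon bases with opposite-strand genes (Gse1 and Ubxn6). No other member shares more than 17.4%. These genes were picked out for this property after their values were seen. The 34 members that overlap no annotated gene had median differences from saline of -0.89 (i.v. TLZ) and -0.82 (NanoTLZ) on the log2 scale, against -0.89 and -0.79 for all 53.

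Compared with saline, the replication genes were lower in tumors of both treatments, but no single gene passed the test. On the log2 scale the median difference of the 53 was -0.89 for i.v. TLZ, -0.79 for NanoTLZ and -0.85 for both treatments together, where the medians over all 15821 tested genes were -0.03, -0.09 and -0.06. The estimate was below 0 for 52 of 53 genes in each of the 3 comparisons, whereas it was below 0 for 52.4%, 56.1% and 54.0% of all tested genes. E2f1 was the exception each time. In bulk RNA, fewer cells in S phase and less RNA of these genes per cell cannot be told apart.

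At an adjusted p under 0.05 (edgeR's quasi-likelihood test, Benjamini-Hochberg over all tested genes) 0 of 53 were called in any comparison, with 0% of all genes called for i.v. TLZ, 0.00632% for NanoTLZ and 0.0190% for both together. The lowest adjusted p among the members was 0.417, 0.552 and 0.238. At an unadjusted p under 0.05, 32 of 53 were lower after i.v. TLZ, 16 after NanoTLZ and 33 in both treatments together, against 5.47%, 5.49% and 8.29% of all tested genes, and 0 of 53 were higher, against 4.91%, 3.51% and 4.80%. All treated tumors lay below all saline tumors for 18 genes after i.v. TLZ (5.20% of all genes), 25 after NanoTLZ (8.13%) and 11 when the 6 treated tumors were pooled (2.66%). Those 11 were Cdc6, Mcm2, Gins2, Pold1, Pole2, Rfc5, Rpa3, Rrm2, Ccne1, Ccne2 and Clspn. The reverse order, treated tumors wholly above saline, was seen for 0 members after i.v. TLZ and both treatments together (5.99% and 2.81% of all genes) and for E2f1 after NanoTLZ (7.82%). Because i.v. TLZ and NanoTLZ share these 3 saline tumors, their differences are not independent of each other.

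**Figure D2:**
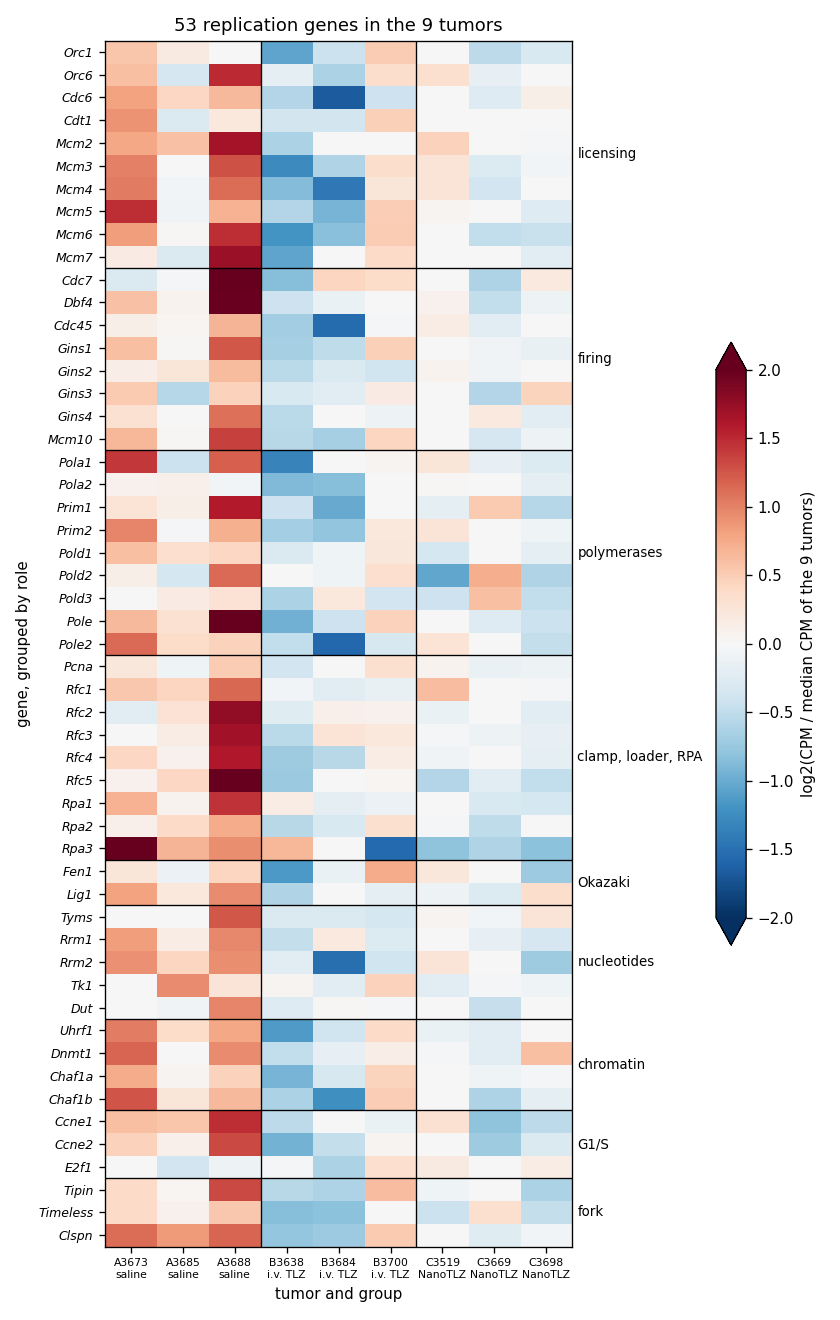
Level of each of the 53 genes in each of the 9 tumors as log2 of CPM over the median of the 9 tumors (color scale from -2 to 2, values beyond it in the end colors), with genes grouped by role and tumors by group. A3688 and A3673 were above the median for most genes and B3638 and B3684 below it. The saline tumor A3685, B3700 and the 3 NanoTLZ tumors were near it.

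Single tumors weighed on these differences. A3688 had the highest level of the 9 tumors in 34 of the 53 genes and A3673 in 14, while B3638 had the lowest in 28 and B3684 in 14. As a median over the 53 genes, log2 of CPM over the median tumor was 0.59 in A3673, 0.08 in A3685 and 0.97 in A3688. In i.v. TLZ it was -0.56 in B3638, -0.30 in B3684 and 0.17 in B3700. In NanoTLZ it was 0.00, -0.13 and -0.17. The groups thus overlapped on this measure, because the saline tumor A3685 was below B3700. Without A3688, 9 genes were lower at an unadjusted p under 0.05 after i.v. TLZ (background 4.19%), 3 after NanoTLZ (3.26%) and 12 in both together (4.87%), and the medians were -0.59, -0.46 and -0.52. Estimates were then below 0 for 50, 48 and 50 of 53 genes. Treated tumors lay wholly below the 2 saline tumors left for 19, 27 and 12, counts that leaving out a saline tumor cannot lower. The share of all genes in this order was not computed without A3688. Leaving out A3673 gave counts at an unadjusted p under 0.05 of 22, 12 and 27 (background 5.83%, 6.5% and 8.51%), with medians of -0.88, -0.67 and -0.77. Without A3685 the counts at an unadjusted p under 0.05 were 37, 29 and 39 (background 8.56%, 8.66% and 11.3%), with medians of -1.17, -1.02 and -1.09. Without B3638 the count after i.v. TLZ was 9 (background 3.52%), with a median of -0.79. The 3 NanoTLZ tumors were close to each other: the median SD of log2 CPM over the 53 genes was 0.22 there, 0.49 in i.v. TLZ and 0.58 in saline, and over all tested genes it was 0.30, 0.47 and 0.59.

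**Figure D3:**
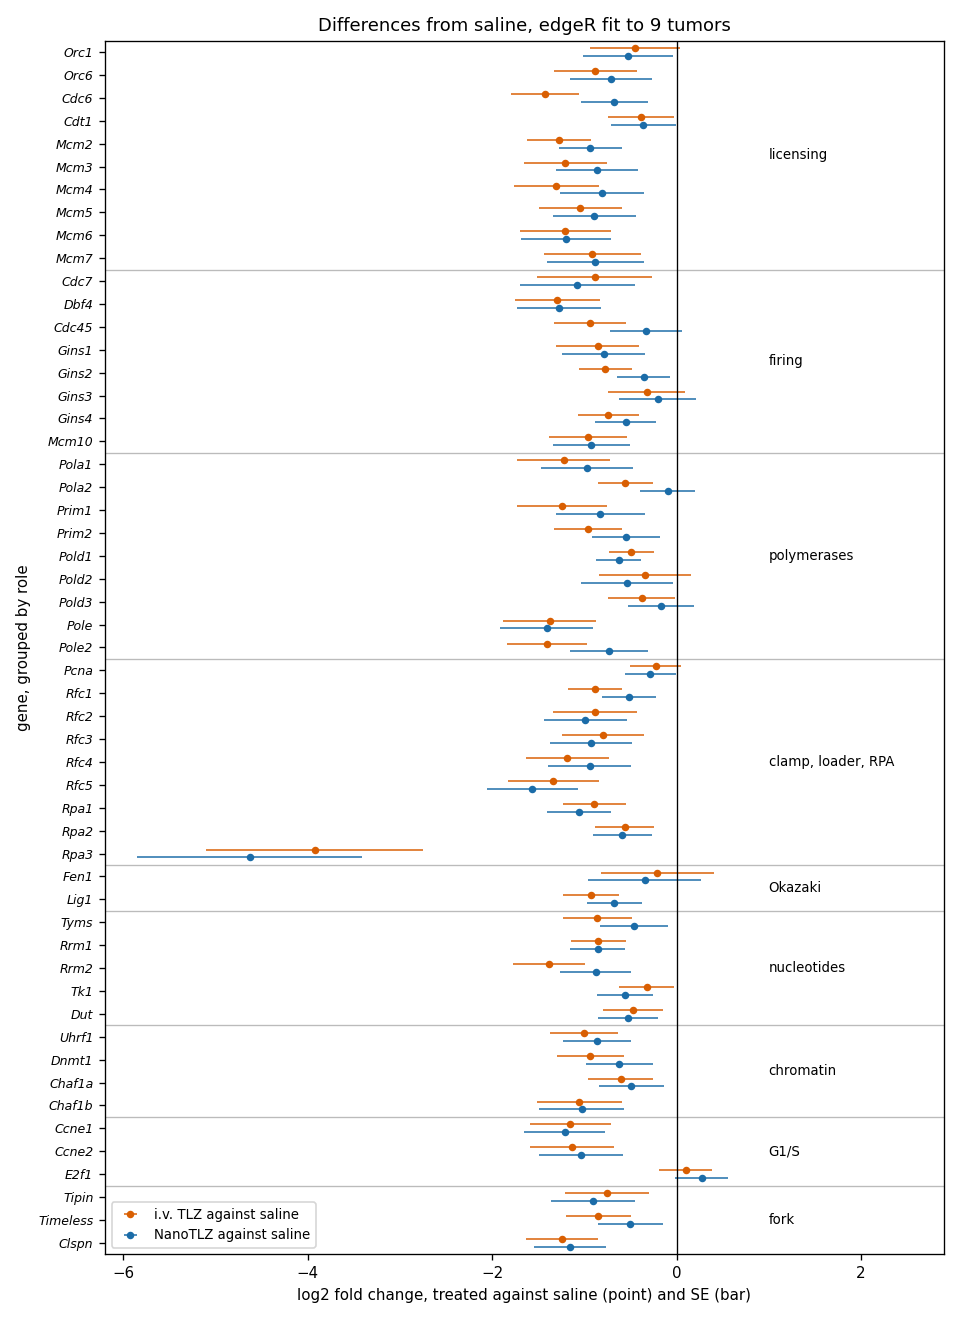
Log2 fold change (horizontal axis) of each of the 53 genes for i.v. TLZ (orange) and NanoTLZ (blue) against saline, with bars of 1 SE, in the edgeR fit to 9 tumors. Estimates lay below 0 for 52 of 53 genes in each comparison, E2f1 lay above 0, and Rpa3 was far below the others with the longest bars.

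The 10 licensing genes had median log2 differences of -1.13 for i.v. TLZ and -0.83 for NanoTLZ, and 6 and 2 of them reached an unadjusted p under 0.05, or 2 and 0 without A3688. For this and the following roles the shares over all tested genes are those given above, 5.47% and 5.49% with all tumors and 4.19% and 3.26% without A3688. Cdc6, which loads the helicase with ORC, had 31.8, 24.1 and 28.4 CPM in the saline tumors, 12.0, 5.63 and 13.6 after i.v. TLZ and 18.1, 15.1 and 19.6 after NanoTLZ. The 3 groups did not overlap, with i.v. TLZ lowest and NanoTLZ in between. The edgeR estimate was a log2 difference of -1.43 ± 0.37 (SE) for i.v. TLZ and -0.68 ± 0.36 after NanoTLZ. The adjusted p was 0.417 and 0.587 in edgeR. Cdc6 was the 1 member that DESeq2 fitted to all 9 tumors called, with an adjusted p of 0.0382 for i.v. TLZ. The share of all genes called in that DESeq2 fit is not given here. Without A3688 the edgeR estimate of Cdc6 was still -1.41. Mcm2, a subunit of the helicase, had 93.7, 82.6 and 174 CPM in saline, 35.3, 54.7 and 54.5 after i.v. TLZ and 75.2, 54.5 and 53.6 after NanoTLZ. Every treated tumor was below every saline tumor. An exact two-sided permutation test over the 84 splits into 6 and 3 tumors gave p = 0.0119, the smallest it can give, with an adjusted p of 0.307 over all tested genes. For genes whose groups do not overlap, this p largely restates the order of the tumors. The estimates were -1.28 ± 0.35 and -0.93 ± 0.34, or -0.86 and -0.50 without A3688.

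Mcm3 had the highest level per length in this group of genes. It had 212, 105 and 255 CPM in saline, 43.4, 69.2 and 135 after i.v. TLZ and 126, 87.3 and 102 after NanoTLZ. The saline tumor A3685 was within the treated range, and the estimates were -1.21 ± 0.45 and -0.86 ± 0.45, or -0.93 and -0.56 without A3688. Mcm6 had 165, 93.5 and 256 CPM in saline, 40.1, 51.8 and 131 after i.v. TLZ and 92.1, 65.2 and 67.3 after NanoTLZ. All NanoTLZ tumors were below saline, B3700 was not, and the log2 fold change of both treatments together was -1.20 ± 0.41, or -0.77 without A3688. The 6 MCM2-7 genes summed to 476 to 1218 CPM in saline, 239.7 to 603 in i.v. TLZ and 411 to 523 in NanoTLZ. Estimates for both treatments together ranged from -1.20 to -0.37 over the 10 genes. The smallest was that of Cdt1, the partner of CDC6 in loading, which had 33.8 to 76.6 CPM in saline, 31.7 to 57.2 after i.v. TLZ and 40.8 to 41.1 after NanoTLZ. Cdt1, and Pold1 and Ccne2 further on, were picked out after their values were seen.

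The 8 genes of origin firing had medians of -0.87 and -0.67, with 5 and 1 at an unadjusted p under 0.05, or 0 and 0 without A3688. Dbf4, the activating subunit of the CDC7 kinase, had 37.5, 26.3 and 98.2 CPM in saline, 18.6, 22.7 and 24.9 after i.v. TLZ and 26.4, 17.6 and 23.1 after NanoTLZ. One saline tumor, A3688, was far above the rest, and A3685 was level with the highest treated tumor. The log2 fold change of both treatments together was -1.28 ± 0.38 with A3688 and -0.50 without it. Cdc45, which joins the helicase when it is switched on, had 28.8, 27.5 and 42.9 CPM in saline, 16.4, 9.13 and 26.2 after i.v. TLZ and 29.5, 22.6 and 26.6 after NanoTLZ. The i.v. TLZ tumors were all below saline and the NanoTLZ tumors were not, with estimates of -0.94 ± 0.39 and -0.33 ± 0.39, or -0.70 and -0.07 without A3688. Gins4, a subunit of GINS, had 54.4, 43.6 and 94.8 CPM in saline, 30.3, 44.2 and 40.9 after i.v. TLZ and 44.0, 50.2 and 37.5 after NanoTLZ, so all 3 groups overlapped. Its estimates were -0.74 ± 0.33 and -0.55 ± 0.33, or -0.33 and -0.13 without A3688. Over the 8 genes the estimates for both treatments together ranged from -1.28 to -0.26.

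Among the 9 priming and polymerase genes the medians were -0.96 and -0.63, with 5 and 2 at an unadjusted p under 0.05, or 1 and 1 without A3688. Pole, the catalytic subunit of polymerase epsilon on the leading strand, had 35.5, 27.9 and 91.6 CPM in saline, 11.5, 17 and 31.2 after i.v. TLZ and 22.7, 19 and 16.8 after NanoTLZ. All NanoTLZ tumors were below saline and B3700 was not, and both treatments together gave -1.39 ± 0.41, or -0.67 without A3688. Its partner Pole2 had 25.6, 15.1 and 16.2 CPM in saline, 8.24, 3.88 and 9.36 after i.v. TLZ and 14.1, 11.7 and 8.38 after NanoTLZ. Here A3673 and not A3688 was the highest, every treated tumor was below saline, and the estimates were -1.40 ± 0.43 and -0.73 ± 0.42, or -1.12 and -0.43 without A3673. Pold2, the accessory subunit of polymerase delta, had the highest level per length of the group. Its values were 50.4, 36.4 and 102 CPM in saline, 46.6, 44.1 and 58.5 after i.v. TLZ and 22.7, 76.8 and 30.6 after NanoTLZ. The groups overlapped, although C3519 and C3698 were below all saline tumors and A3688 was above all treated tumors. The estimate for both treatments together went from -0.44 ± 0.42 to 0.12 without A3688. Pold1, the catalytic subunit of polymerase delta, was higher in every saline tumor than in any treated tumor, with 67.5 to 80.6 CPM in saline, 43.4 to 62.5 after i.v. TLZ and 41.9 to 53.4 after NanoTLZ.

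The 9 genes of the clamp, its loader and the single strand binding protein had medians of -0.89 and -0.94, with 5 and 3 at an unadjusted p under 0.05, or 2 and 1 without A3688. Pcna had 182, 147 and 222 CPM in saline, 119.8, 156 and 196 after i.v. TLZ and 164, 143 and 146 after NanoTLZ. The groups overlapped, and the estimates were -0.23 ± 0.27 and -0.28 ± 0.27, or -0.05 and -0.09 without A3688. Without B3638 the i.v. TLZ estimate was -0.06. The adjusted p in edgeR was 0.796 and 0.751. Rfc5, a subunit of the clamp loader, had 39.1, 49.6 and 156 CPM in saline, 22, 37.1 and 38.0 after i.v. TLZ and 24.7, 31.9 and 26.4 after NanoTLZ. All treated tumors were below saline. The size of the difference rested on A3688: it was -1.45 ± 0.41 for both treatments together and -0.55 without that tumor. Rpa1, the large subunit of the protein that coats single stranded DNA, had 74.6, 48.4 and 125 CPM in saline, 50.8, 40.6 and 42.3 after i.v. TLZ and 46.1, 37.1 and 36.1 after NanoTLZ. NanoTLZ was below all saline tumors and i.v. TLZ was not, and both treatments together gave -0.98 ± 0.29, or -0.52 without A3688.

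Rpa3, the small subunit of the same protein, was unlike the other 52 genes. It had 993 CPM in A3673, 38.8 and 46.4 in the other saline tumors, 38.4, 24.3 and 8.22 after i.v. TLZ and 13.8, 16.0 and 13.7 after NanoTLZ. A3673 was 49.3 times the median of the other 8 tumors. The estimate for both treatments together was -4.28 ± 0.91 (adjusted p = 0.238), the largest of the 53 in size, and was -1.18 without A3673, with an unadjusted edgeR p of 0.0280. Within A3673 the highest RPA subunit exceeded the lowest by 78.5 times per length, where the median over tumors was 2.36 times. The genes next to Rpa3 on chromosome 6 (GRCm38, 8255936 to 8259173) were high in the same tumor. Mios, a component of a nutrient sensing complex, had 1404 CPM in A3673 and 11.5 to 37.5 in the others, Umad1 had 580.1 against 5.82 to 24.2, and Ica1 had 399 against 4.02 to 16.1. Col28a1, A430035B10Rik and Glcci1 had 43.1, 6.98 and 34.5 CPM in A3673 and at most 5.30, 0.727 and 3.54 elsewhere. These 7 genes are consecutive among the tested genes. On the near side of them, Asns, C1galt1 and Gm9825 had 67.4, 83.5 and 0.629 CPM in A3673, inside the range of the other tumors. DNA copy number was not measured in these tumors and its part in this block was not tested.

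**Figure D4:**
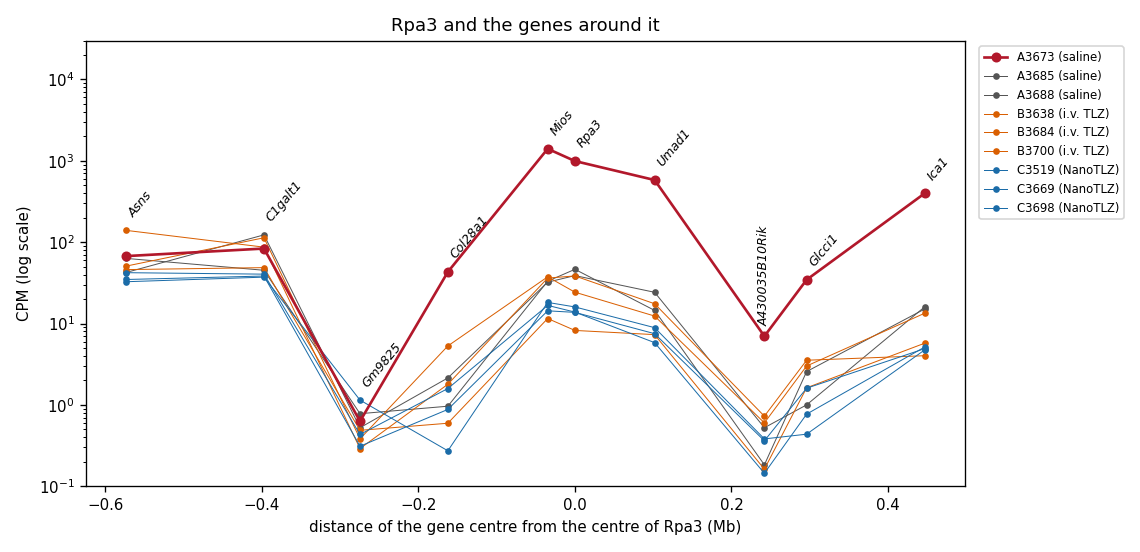
CPM (log scale) in each of the 9 tumors of Rpa3 and of the tested genes within 1 Mb of it, against the distance of each gene's centre from that of Rpa3 (Mb). A3673 lies far above the other tumors from Col28a1 to Ica1, with Rpa3 at 993 CPM, and among them from Asns to Gm9825.

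Of the 2 genes of Okazaki fragment maturation, Lig1, the ligase that seals the fragments, had 81.1, 54.3 and 90.3 CPM in saline, 30.7, 46.6 and 41.3 after i.v. TLZ and 43.4, 38.4 and 59.7 after NanoTLZ. The i.v. TLZ tumors were below saline and C3698 of NanoTLZ was not, with estimates of -0.93 ± 0.30 and -0.67 ± 0.30. Fen1 had an estimate of -0.28 for both treatments together, or -0.11 without A3688, at levels near 1 CPM.

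The 5 genes of nucleotide supply had medians of -0.85 and -0.56, with 3 and 2 at an unadjusted p under 0.05, or 1 and 0 without A3688. Their summed level was higher in every saline tumor than in any treated tumor, at 349 to 447 CPM in saline, 228 to 273 in i.v. TLZ and 231 to 258 in NanoTLZ. Rrm2, the S phase subunit of ribonucleotide reductase, had 80.2, 57.2 and 81.5 CPM in saline, 36.7, 14.9 and 32.4 after i.v. TLZ and 50.9, 42.6 and 25.9 after NanoTLZ. Every treated tumor was below saline, and the estimates of -1.38 ± 0.39 and -0.88 ± 0.39 moved little without A3688, to -1.28 and -0.76. Tk1, the thymidine kinase of the salvage pathway, was the 1 gene of this group with its highest value in A3685. It had 95.8, 184 and 114 CPM in saline, 99.4, 83.1 and 132 after i.v. TLZ and 82.5, 94.1 and 89.97 after NanoTLZ, and its estimates were -0.32 ± 0.30 and -0.56 ± 0.30, or -0.01 and -0.24 without A3685.

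The 4 genes that copy DNA methylation and chromatin behind the fork had medians of -0.97 and -0.74, with 3 and 2 at an unadjusted p under 0.05, or 1 and 0 without A3688. All 4 were highest in A3673. Without that tumor the counts were 0 and 0 (5.83% and 6.5% of all tested genes), with medians of -0.71 and -0.51. Uhrf1, which brings DNMT1 to newly copied DNA, had 172, 109 and 145 CPM in saline, 38.3, 63.9 and 110.1 after i.v. TLZ and 77.3, 72.1 and 84.4 after NanoTLZ. Only B3700 of the treated tumors reached the lowest saline value, and both treatments together gave -0.93 ± 0.31, or -0.90 without A3688. Over all settings tried this estimate ranged from -1.14 to -0.75. Chaf1b, a subunit of the histone chaperone CAF-1, had 54.6, 26.8 and 35.6 CPM in saline, 14.6, 9.68 and 32.0 after i.v. TLZ and 22.7, 14.7 and 19.8 after NanoTLZ. NanoTLZ was below saline, B3700 was not, and the estimate for both was -1.04 ± 0.38, or -0.70 without A3673.

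Of the 3 G1/S genes, Ccne1 and Ccne2 were at an unadjusted p under 0.05 in both treatments, and in neither without A3688. Ccne1, cyclin E1, had 12.0, 11.6 and 22.2 CPM in saline, 5.48, 7.93 and 7.25 after i.v. TLZ and 9.82, 4.48 and 5.48 after NanoTLZ. Every treated tumor was below every saline tumor. The estimates were -1.15 ± 0.44 and -1.21 ± 0.44, with adjusted p = 0.444 and 0.552 in edgeR. The exact permutation test of treated against saline, which largely restates that order, gave p = 0.0119 (adjusted 0.307). Ccne2, the second cyclin E gene, was likewise lower in every treated tumor, with 9.01 to 21.0 CPM in saline, 4.31 to 8.71 after i.v. TLZ and 5.08 to 8.38 after NanoTLZ. E2f1, the transcription factor whose motif is described above, had 47.7, 36.6 and 44.3 CPM in saline, 46.8, 30.8 and 60.0 after i.v. TLZ and 54.2, 48.1 and 52.8 after NanoTLZ. The NanoTLZ tumors were all above saline by a small margin, with an estimate of 0.27 ± 0.29 and an adjusted edgeR p of 0.774. The i.v. TLZ tumors lay on both sides of saline.

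Of the 3 genes of fork protection, Clspn, which carries the checkpoint signal from ATR to CHK1, had 32.2, 26.8 and 33.3 CPM in saline, 8.63, 8.91 and 21.4 after i.v. TLZ and 14.8, 12.5 and 14.2 after NanoTLZ. All treated tumors were below saline, and the difference did not rest on A3688: both treatments together gave -1.20 ± 0.32 with it and -1.12 without it. The adjusted p was 0.279 in the edgeR fit. Tipin, the partner of TIMELESS, had 23.2, 18.4 and 44.7 CPM in saline, 12.1, 11.6 and 27.4 after i.v. TLZ and 16.8, 17.8 and 11.5 after NanoTLZ. B3700 was inside the saline range, and the estimates were -0.76 ± 0.46 and -0.90 ± 0.46, or -0.28 and -0.41 without A3688.

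**Figure D5:**
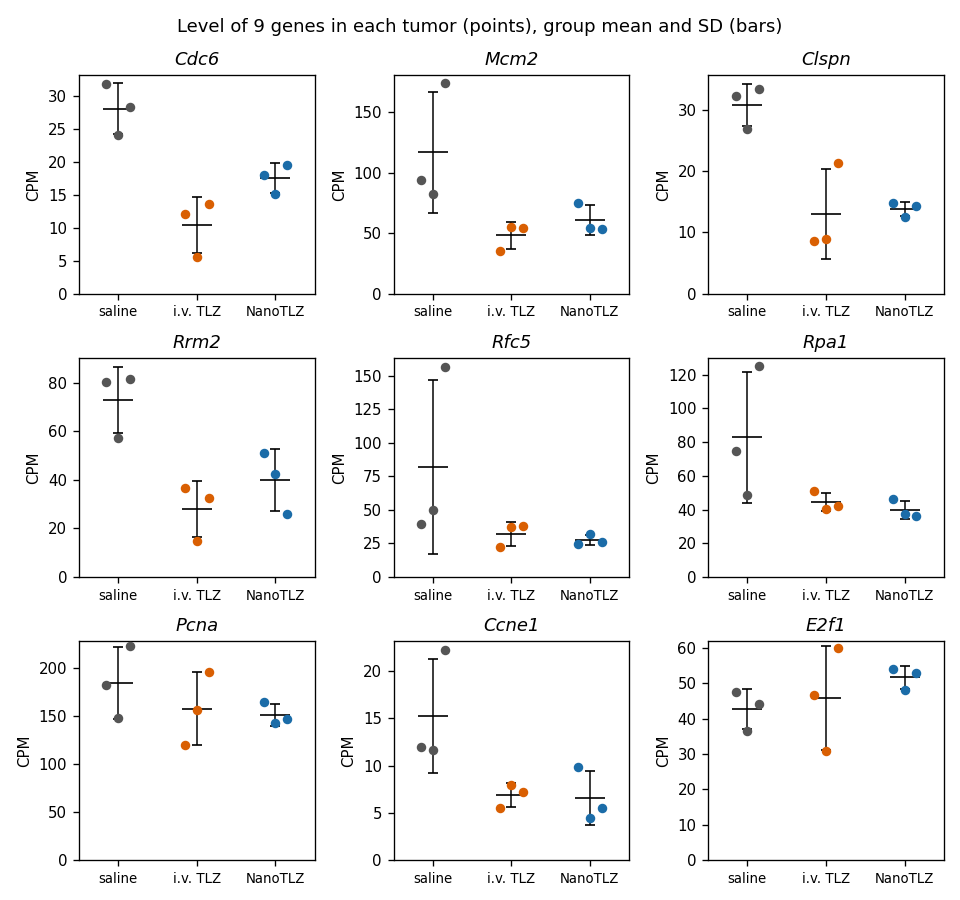
CPM of Cdc6, Mcm2, Clspn, Rrm2, Rfc5, Rpa1, Pcna, Ccne1 and E2f1 (1 panel each) in the 3 tumors of each group as points, with the group mean and SD (n = 3) as bars. Treated tumors lay below all saline tumors for Cdc6, Mcm2, Clspn, Rrm2, Rfc5 and Ccne1, and overlapped them for Rpa1, Pcna and E2f1.

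A3688 was not raised evenly over the 53 genes. The 9 members on chromosome 5 (Mcm7, Cdc7, Dbf4, Pole, Rfc1, Rfc2, Rfc3, Rfc5 and Tyms) had a median log2 ratio to the median tumor of 1.78 in A3688, where the other 44 had 0.93. In A3673 the order was the other way, with 0.08 for the 9 and 0.61 for the 44. All 972 tested genes of chromosome 5 had a median of 0.41 in A3688, against -0.47 to 0.59 over the 20 chromosomes tested, and chromosomes 6, 10, 13 and X were higher than chromosome 5. Rfc5 was 4.53 times the median of the other 8 tumors in A3688, Pole 4.4 times, Cdc7 4.13 times and Dbf4 4.10 times. Without A3688 the 9 genes had a median log2 fold change of -0.09 for both treatments together and the other 44 had -0.54, with 0 and 12 at an unadjusted p under 0.05. With all 9 tumors, the 44 genes alone gave 27 of 44 at an unadjusted p under 0.05 after i.v. TLZ, 13 after NanoTLZ and 27 in both together, and medians of -0.91, -0.69 and -0.81. This division by chromosome was chosen after the values were seen, and its cause was not tested.

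NanoTLZ and i.v. TLZ were compared with each other at the same dose. No member was called at an adjusted p under 0.05, as was 0% of all tested genes, and at an unadjusted p under 0.05 edgeR and DESeq2 found 0 of 53 in either direction (1.23% of all genes lower and 0.449% higher after NanoTLZ), whereas limma-voom found Cdc6. The median log2 fold change of NanoTLZ over i.v. TLZ was 0.10, and it was below 0 for 18 of 53 genes against 54.4% of all tested genes. NanoTLZ tumors were wholly above i.v. TLZ tumors for Cdc6, Gins2, Rfc1 and Tyms (3.20% of all genes) and wholly below for 0 members (4.41%). The 3 members with the lowest p were Cdc6 at 0.75 ± 0.36, Cdc45 at 0.61 ± 0.39 and Pole2 at 0.67 ± 0.42, each with an adjusted p of 0.9999 (edgeR). Leaving out B3700 moved the median to 0.44 and the count at an unadjusted p under 0.05 to 4, all higher (Cdc45, Cdc6, Mcm4 and Pola2). In that fit 1.89% of all genes were lower, and the share higher was not computed. Leaving out B3638 moved the median to -0.11.

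Further replication genes outside the 53 were mostly lower too, in the same 9 tumors. Of 54 such genes, all tested, 21 were lower at an unadjusted p under 0.05 after i.v. TLZ, 14 after NanoTLZ and 26 in both together. The shares over all tested genes were 5.47%, 5.49% and 8.29%. The 54 genes had medians of -0.67, -0.61 and -0.66, and 0 were called at an adjusted p under 0.05. Ticrr, the activator of origin firing, had the lowest p, with 34.6, 13.1 and 33.5 CPM in saline, 5.19, 7.43 and 11.3 after i.v. TLZ and 10.01, 8.73 and 8.43 after NanoTLZ. All 6 treated tumors were below saline, and the estimate was -1.67 ± 0.36 for both together. The adjusted p was 0.271 in edgeR. E2f8, a repressor of the E2F family, was at -1.16 ± 0.28. In the opposite direction Pold4, the smallest subunit of polymerase delta, was at 0.87 ± 0.40, and Nme1, a nucleoside diphosphate kinase, at 0.53 ± 0.31, both overlapping between groups. Without A3688 the counts were 8, 5 and 10 of 54, against 4.19%, 3.26% and 4.87% of all tested genes.

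Genes of mitosis were lower in treated tumors as well, and the difference between the lists was not tested. Of 20 mitosis genes, 14 were lower at an unadjusted p under 0.05 after i.v. TLZ, 17 after NanoTLZ and 17 in both together. The shares over all tested genes were 5.47%, 5.49% and 8.29%. The mitosis genes had medians of -1.24, -1.25 and -1.31, and 0 were called at an adjusted p under 0.05. They followed the same tumors, with median log2 ratios to the median tumor of 1.55 in A3688, 0.91 in A3673, 0.04 in A3685 and 0.55 in B3700. Without A3688 their counts were 2, 2 and 4, against 4.19%, 3.26% and 4.87% of all tested genes.

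Markers of other cell types also differed between tumors. Leukocyte markers, 11 of 14 tested, summed to 165 to 662 CPM in saline, 256 to 656 in i.v. TLZ and 560.1 to 822 in NanoTLZ, with median differences of 0.34 and 1.07 on the log2 scale. A3688, highest in replication genes, had the lowest leukocyte sum at 165 CPM and the lowest endothelial sum at 90.8 CPM, where the other tumors had 109 to 302. Fibroblast markers, 10 of 10 tested, had medians of 0.48 and 0.59, with sums of 1733 to 2513 CPM in saline, 1182 to 6487 in i.v. TLZ and 2243 to 3839 in NanoTLZ. Epithelial markers had medians of 0.00 and -0.44. Skeletal muscle markers, 10 of 12 tested, had medians of -5.77 and -6.13. Adipocyte markers, 3 of 8 tested, summed to 6.29 to 51.1 CPM over all tumors. Among defining markers, Lep of adipocytes was at 3 counts or fewer in 7 of the 9 tumors, and Tnnc2 of muscle in all 9. These 2 do not stand for their lists. Fabp4, Cidea and Pparg of adipocytes and Mylpf, Tnnt3, Tnni2 and Atp2a1 of muscle were above 3 counts in every tumor. The remaining markers of both lists were at 3 counts or fewer in some tumors. The part of these cells in the levels of the 53 genes was not tested.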

How the data were processed

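The authors deposited raw read counts per Ensembl gene for 9 tumors, 3 per group as labelled. The submitters' processing notes name TopHat2, DESeq2 and the mm10 build without roles, and the counting program, annotation and strand setting are not given in the sources used here. All 9 tumors were fitted together with edgeR 4.0.16 (R 4.3.3): TMM, filterByExpr with a minimum count of 10, the quasi-likelihood test and Benjamini-Hochberg adjustment over 15821 genes. SE is the log2 fold change divided by the square root of F. Treated tumors were also set against saline by an exact two-sided permutation test over 84 splits. RPKM used the union of all GENCODE M21 exons of a gene as its length. DESeq2 1.42.0, limma-voom (limma 3.58.1), other normalizations, filters and fits, and leaving out each tumor were tried. Scripts were tested on simulated data. The members, lists and the rule for named genes were chosen with earlier results of these data known. That rule took the 3 members with the lowest p per comparison, the highest and the most different member of each role, Pcna, Ccne1, and members opposite in sign to the median. From other replication genes it took the 2 with the lowest p in each direction.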

Additional observations from a re-analysis of the deposited data

How the results depend on the processing

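No paired analysis was possible because the labels give the tumors names but no replicate numbers. Numbered in accession order, replicates 1, 2 and 3 are A3673, A3685 and A3688 in saline, B3638, B3684 and B3700 in i.v. TLZ and C3519, C3669 and C3698 in NanoTLZ. Normalization, filter, robust dispersion and the removal of chromosome 5 members (chosen after seeing the data) kept the counts at an unadjusted p under 0.05 within 1.5 times. After i.v. TLZ that count was 18 with edgeR (3.17% of all genes) and 19 with DESeq2 (2.68%) on the groups compared alone. At an adjusted p under 0.05, 1 member was called by DESeq2 on all 9 tumors (Cdc6, i.v. TLZ) and 1 without a filter (Rpa3, both treatments). The shares of all genes called in these fits are not given here, and the Rpa3 call includes A3673. Limma-voom gave 1 member in NanoTLZ against i.v. TLZ at an unadjusted p under 0.05. The cause of these differences was not tested.

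Leaving out 1 tumor, that count ranged from 9 to 37 for i.v. TLZ, 3 to 29 for NanoTLZ, 12 to 39 for both treatments and 0 to 4 for NanoTLZ against i.v. TLZ. For i.v. TLZ it was 14 without B3684 (4.99% of all tested genes), and for NanoTLZ 5 without C3669 (2.47%) and 6 without C3698 (2.51%).

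Against saline, of the genes described in full, the sign turned for E2f1 (i.v. TLZ, -0.13 to 0.32) and for Pold2 (i.v. TLZ -0.62 to 0.21, NanoTLZ -1.21 to 0.03, both -0.77 to 0.12). Among the other members it turned without A3688 for Cdc7 in all 3 comparisons and for Mcm7 and Tyms in NanoTLZ, and without A3673 for Cdt1 in all 3 and for Gins3 in NanoTLZ. Other leave-outs were not listed for these members. For NanoTLZ against i.v. TLZ, leaving out 1 tumor gave -0.29 to 0.72 for Mcm6, -0.11 to 0.19 for Dbf4, -0.88 to 0.11 for Pold2, -0.31 to 0.46 for Pole, -0.22 to 0.15 for Pcna, -0.16 to 0.62 for Uhrf1, -0.29 to 0.67 for Chaf1b, -0.46 to 0.17 for Ccne1, -0.04 to 0.44 for E2f1, -0.36 to 0.39 for Tipin and -0.13 to 0.68 for Clspn. Pole was 0.00 with upper quartile normalization and 0.09 with limma-voom. With 3 tumors a group and a biological coefficient of variation of 49.8%, differences of single members were not resolved.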
